A study of Schizosaccharomyces pombe with 8 samples.

Results

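In fission yeast, Schizosaccharomyces pombe, 383 introns in 282 genes stayed mostly spliced, on average, in 6 splicing-factor mutants moved to 37 °C. They were chosen by measured values. The unspliced share of an intron is its unspliced reads over its spliced plus unspliced reads, and the chosen introns have a mean share of at most 45% over the mutants and a pooled share under 10% in the wild type. Each is an annotated intron of 46 to 149 nt covered by 20 or more reads in each of the 8 libraries. Of 5144 annotated introns 2514 reached that read minimum, 1319 of these met every condition but the mutant limit, and 383 of the 1319 (29.0%) lay at or under 45%. They are called spliced introns here, the other 936 are called retained introns, and 121 of those 936 had a mean mutant share of 80% or more. Since the mutant and wild-type shares made the choice, the low level of the spliced introns and its difference from the wild type are described without a test.

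Poly(A) RNA was sequenced from 6 mutant strains and from the wild type (WT, strain ED666), all grown in liquid YPD at 25 °C and shifted to 37 °C for 15 minutes. The mutants, 1 library each, were prp10-R379H, sap114-A152V, prp1-G705D, cwf22-G191D, prp22-V801M;G917R and ntr1-W597R. WT had 2 libraries, shifted in the same way. Every strain but WT carries its own allele or alleles, and no mutant strain has a second library, so strain and library cannot be told apart. A directional kit was used on 1 µg of RNA per library. Nothing in the labels says that the WT libraries came from separate cultures, and their spread may be technical. Over the 5144 introns, spliced plus unspliced reads came to 420473 and 846804 in WT and to between 809751 and 1858792 in the mutants.

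The spliceosome removes an intron in 2 chemical steps. It reads the 5′ splice site, the branch point adenosine and the 3′ splice site, and most introns of fission yeast are short and rich in A and T. Prp10 (of SF3b) and Sap114 (of SF3a) belong to the U2 snRNP, which binds the branch site, and Prp1 joins the U4/U6 and U5 snRNPs into the tri-snRNP. Cwf22 acts in the assembled spliceosome, the helicase Prp22 frees the finished mRNA, and Ntr1 works with the helicase Prp43 when the spliceosome is taken apart. Poly(A) RNA that was spliced before the shift is counted together with RNA spliced after it, and these cannot be told apart.

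The sequences of the 6 spliced introns with the lowest mean mutant share, among those with 50 or more reads in each library and taking 1 per gene, are shown first because they lie at the low end of the range. They are written 5′ to 3′ on the strand of the gene, from the NCBI reference sequence, with the chromosome coordinates of the table (build ASM294v2, counted from 1). Capitals mark the first 6 bases (the 5′ splice site), the last 3 bases (the 3′ splice site) and an inferred branch sequence, where one was found.
ned8 intron 1 (chrII:2320191-2320238, minus strand): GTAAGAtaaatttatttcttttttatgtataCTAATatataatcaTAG
rpp202 intron 1 (chrII:2128056-2128101, minus strand): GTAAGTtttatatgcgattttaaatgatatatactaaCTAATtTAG
SPBC3E7.07C intron 4 (chrII:2672398-2672452, minus strand): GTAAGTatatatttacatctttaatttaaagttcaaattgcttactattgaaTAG
pfd3 intron 1 (chrI:601426-601474, minus strand): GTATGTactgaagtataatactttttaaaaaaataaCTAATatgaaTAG
rps2502 intron 2 (chrI:4208501-4208553, minus strand): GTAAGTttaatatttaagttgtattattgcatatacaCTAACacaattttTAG
psf3 intron 3 (chrI:528270-528325, minus strand): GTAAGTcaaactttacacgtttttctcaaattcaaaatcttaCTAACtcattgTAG
The branch sequence is the last CTNAC or CTNAT, with A or G at the N, within the last 60 nt of the intron, on the gene's strand only. None of these was found in intron 4 of SPBC3E7.07C, and in rpp202 the marked CTAAT shares its first base with a CTAAC just before it. All 6 end in TAG and are 46 to 56 nt long.

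For contrast, the 3 introns with the highest mean mutant share among the 1319 are given in the same way.
cnt5 intron 3 (chrII:2184099-2184222, minus strand): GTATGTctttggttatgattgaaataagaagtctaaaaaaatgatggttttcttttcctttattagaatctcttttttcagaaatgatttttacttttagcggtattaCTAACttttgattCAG
SPAPB1A10.08 intron 1 (chrI:1876887-1876958, plus strand): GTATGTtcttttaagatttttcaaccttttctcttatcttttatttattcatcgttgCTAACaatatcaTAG
hri2 intron 2 (chrI:956185-956233, minus strand): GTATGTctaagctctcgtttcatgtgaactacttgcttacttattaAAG
Their mean mutant shares were 91.5% ± 6.88, 90.4% ± 9.20 and 89.2% ± 12.7 (SD, n = 6). A CTAAC branch sequence behind a GTATGT or GTAAGT start therefore stood at both ends of the range of shares.

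**Figure D1:**
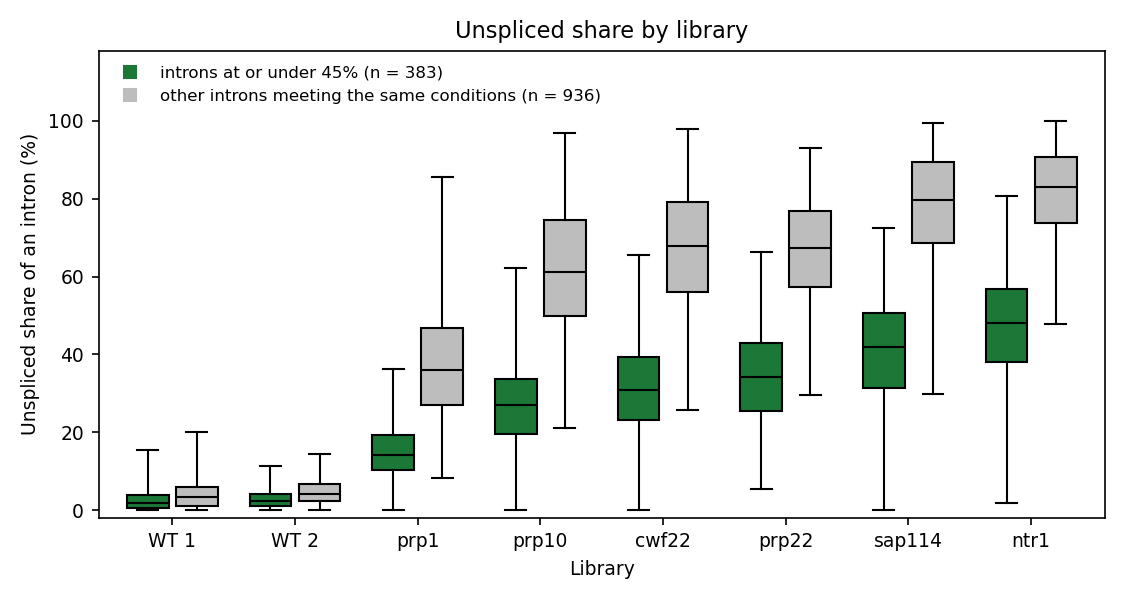
Unspliced share of an intron (%, vertical axis) in each library, for the 383 spliced introns (green) and the 936 retained introns (grey). Boxes give the quartiles and median and whiskers the lowest and highest intron. The median of the spliced introns runs from 14.1% in prp1 to 48.0% in ntr1 and is near 2% in both WT libraries.

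The spliced introns were lowest in prp1 and highest in ntr1. Their median unspliced share was 14.1% in prp1, 27.0% in prp10, 31.0% in cwf22, 34.2% in prp22, 41.9% in sap114 and 48.0% in ntr1, against 1.75% and 2.29% in WT. The mean of these medians was 32.7% ± 11.8 (SD, n = 6) in the mutants and 2.02% ± 0.381 (SD, n = 2) in WT. For the retained introns the same means were 65.8% ± 16.7 (SD, n = 6) and 3.65% ± 0.605 (SD, n = 2). The plot of shares by library shows that the spliced introns followed the order of the strains seen for the retained ones, at a lower level, except that prp22 (67.3%) and cwf22 (67.8%) changed places there. More than 50% of the reads were unspliced at 169 of the spliced introns in ntr1, 99 in sap114, 26 in prp22, 15 in cwf22, 3 in prp10 and 0 in prp1. The name therefore holds for the mean over the strains and not for every strain.

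The mean mutant share of the 383 ran from 4.599% to 44.99%, with a median of 33.9%. It was under 10% at 9 introns, under 20% at 45 and under 30% at 136, and it was over 40% at 95. At 371 of the 383 every mutant share lay above both WT shares, while in all 2514 introns tested this held for 98.6%. The choice used this contrast, so the count is only a description. In the other 12 the mutant and WT shares overlapped. Among these, intron 4 of mde1, a gene of the methionine salvage pathway, had 5.52% ± 2.08 (SD, n = 6) in the mutants and 5% ± 4.24 (SD, n = 2) in WT, on as few as 24 reads in a library. Intron 1 of pfd3, also among them, was read at least 103 times in each library. Just inside the limit lay intron 2 of pro2 (44.99%), intron 2 of spi1 (44.9%) and intron 6 of rmt1 (44.8%), and just outside it intron 2 of tom7 (45.2%), intron 7 of rmt1 (45.3%) and intron 3 of pfd2 (45.4%). Neighbouring introns of 1 gene, rmt1, thus stood on either side of the limit.

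**Figure D2:**
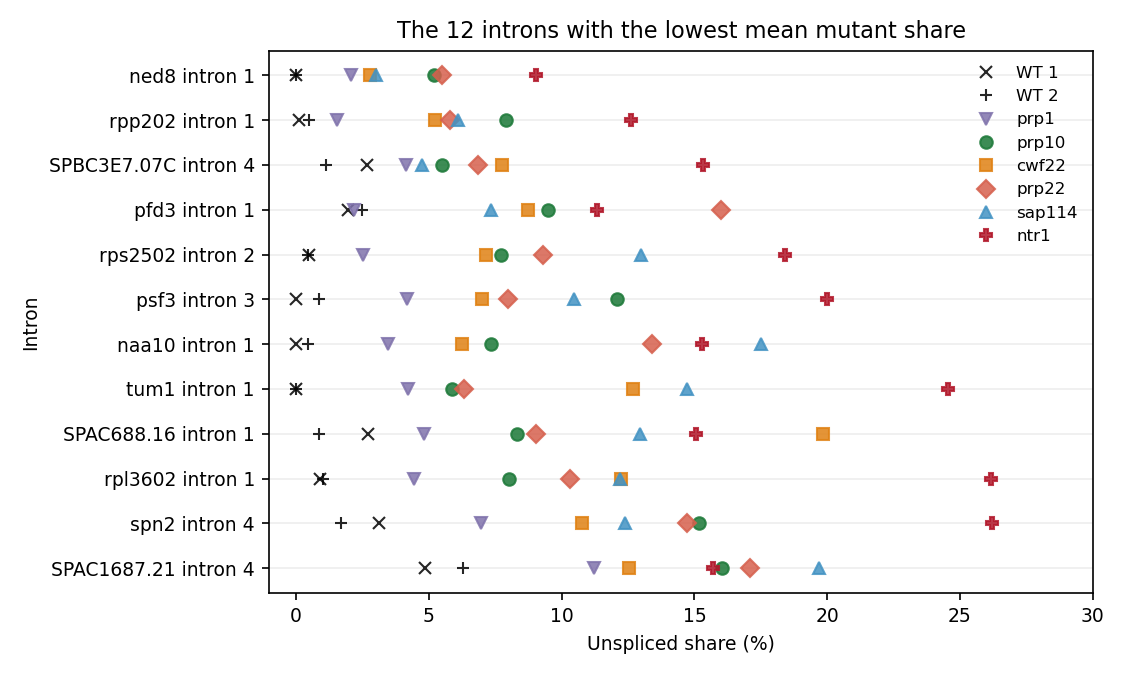
Unspliced share (%, horizontal axis) of the 12 spliced introns with the lowest mean mutant share among those with at least 50 reads in each library and 1 per gene, with 1 symbol for each of the 8 libraries. The prp1 share is the lowest of the mutants in all 12, and the ntr1 share the highest in 8.

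Intron 1 of ned8 had the lowest mean share of the 383. The gene encodes the ubiquitin-like modifier that activates cullin ubiquitin ligases. Its intron 1 was unspliced in 2.08% of reads in prp1, 2.78% in cwf22, 3% in sap114, 5.19% in prp10, 5.50% in prp22 and 9.03% in ntr1, with a mean of 4.60% ± 2.57 (SD, n = 6). In WT it had 0 unspliced reads among 66 and 139, which allows shares of up to 4.55% and 2.16%. With 72 to 155 reads in a mutant library the single shares are loose, and the Wilson 95% interval in ntr1 was 5.46% to 14.6%. Such intervals and limits cover counting error only.

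Intron 1 of rpp202, its only intron, rests on 1000 or more reads in each library. The gene encodes P2, an acidic protein of the stalk of the large ribosomal subunit. The share was 1.55% in prp1, 5.23% in cwf22, 5.81% in prp22, 6.11% in sap114, 7.92% in prp10 and 12.6% in ntr1, against 0.1% and 0.487% in WT. All 6 mutants lay above both WT libraries, and the Wilson 95% interval was 1.13% to 2.11% in prp1. The intron is 46 nt long, the shortest length that the choice allowed.

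Intron 2 of rps2502 was covered still more deeply, by 2850 or more reads. The gene encodes eS25 of the small ribosomal subunit. The unspliced share was 2.53% in prp1, 7.17% in cwf22, 7.72% in prp10, 9.30% in prp22, 12.99% in sap114 and 18.4% in ntr1, against 0.491% and 0.456% in WT. Every mutant lay above both WT libraries here too. Both ribosomal protein genes have paralogs of very similar sequence, and how reads that match more than 1 place were treated is not known from the labels or headers, so their counts are uncertain to that extent.

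A further 3 of these 12 introns lie in genes that work in larger protein complexes. Intron 1 of pfd3, which encodes a subunit of prefoldin, the chaperone that hands tubulin and actin to the chaperonin, had 2.17% in prp1, which lay between the WT values of 1.94% and 2.49%. In the other 5 mutants it ran from 7.34% in sap114 to 16% in prp22. Intron 3 of psf3, for a subunit of the GINS complex of the replication fork, ran from 4.17% in prp1 to 20% in ntr1, with 0.855% in WT replicate 2 and 0 of 53 reads, allowing up to 5.66%, in WT replicate 1. Intron 1 of naa10, for the catalytic subunit of the NatA N-terminal acetyltransferase, ran from 3.45% in prp1 to 17.5% in sap114, with 0.435% in WT replicate 2 and 0 of 142 reads, allowing up to 2.11%, in WT replicate 1.

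The remaining introns among the 12 lowest, with 50 or more reads in each library and 1 per gene, had mean mutant shares of 7.39% ± 4.11 to 15.4% ± 3.07 (SD, n = 6). They were intron 4 of SPBC3E7.07C and intron 1 of SPAC688.16, both uncharacterized genes, intron 1 of tum1 (a sulfurtransferase), intron 1 of rpl3602 (ribosomal protein L36), intron 4 of spn2 (a septin) and intron 4 of SPAC1687.21 (a fructose-2,6-bisphosphatase). In 8 of the 12 the highest share was that of ntr1, as the plot of the 12 lowest introns shows. Intron 4 of SPAC1687.21 ran from 11.2% in prp1 to 19.7% in sap114, against 4.85% and 6.29% in WT.

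The strains were then compared with each other. The limit was set on the mean of the 6 mutants, which does not fix which strain is high or low. Among the 383 spliced introns the lowest share was found in prp1 at 322 (84.1%), and the highest in ntr1 at 255 (66.6%) and in sap114 at 86. These counts were not made over all 2514 introns tested. There too the median share was lowest in prp1 (37.5%) and highest in ntr1 (81.1%), so this order is not particular to the spliced introns. Each strain was tested against the other 5 mutants with edgeR's quasi-likelihood F test on the spliced and unspliced counts, adjusted by Benjamini-Hochberg over all 2514 introns. In prp1, 112 of the 383 (29.2%) were called lower and 0 higher, while 46.3% of all tested introns were called lower. The share called was thus smaller among the spliced introns than over the whole table, and that difference was not tested.

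The size of the prp1 difference moved with the library as a whole. The median log2 odds of unspliced over spliced reads, prp1 minus the other 5 mutants, was -1.70 over the spliced introns and -2.05 over all tested introns. With each library centred on its own median log2 odds, no spliced intron and no tested intron was called in either direction in edgeR. The median difference became +0.36 over the spliced introns and +0.02 over all tested introns. Relative to the shift of the whole library the spliced introns therefore were not called lower in prp1. A single library stands for each strain, and the test assumes that it varies like the other mutants. Without cwf22 the number called lower in prp1 was 53, and without sap114 it was 60.

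In the other 5 strains edgeR called 0 of the 383 in either direction, where the whole table also had 0 called (0% of 2514 introns in each). The median log2 odds of a strain minus the other 5 mutants were 1.21 in ntr1 and 0.75 in sap114 over the spliced introns. They were 0.14 in prp22, -0.05 in cwf22 and -0.43 in prp10. Over all tested introns the same medians were, in the same order, 1.26, 1.03, -0.07, 0.05 and -0.33. With each library centred on its median, they lay between -0.27 (sap114) and 0.14 (prp22) over the spliced introns. Over all tested introns they then lay between -0.07 (prp22) and 0.04 (cwf22). DESeq2, limma and edgeR after centring called no spliced intron in these strains either. Over all tested introns the same held, except in ntr1 with limma. The introns of these strains that differed most from the mean of the other mutants, in either direction and with 50 or more reads in each library, are therefore named by size alone. In ntr1 intron 4 of par1, which encodes a regulatory subunit of protein phosphatase PP2A, had 80.7%, while the other mutants ran from 20.8% in prp1 to 48.2% in cwf22. In sap114 intron 3 of SPAC3G6.05, for a Mpv17/PMP22 family protein, had 72.4% against 23.4% to 56.7%. In cwf22 intron 1 of smf1, for an Sm protein of the spliceosomal snRNPs themselves, had 53.4% against 17.2% to 39.0%. In prp22 and prp10 the largest differences were towards a lower share. Intron 3 of SPAC644.09, for a pyridoxal phosphate homeostasis protein, had 16.9% in prp22 against 18.5% to 64.8%. In prp10 intron 3 of SPAC23C4.09C, for a protein associated with the chaperonin, had 18.8% against 26.1% to 54.2%.

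Among introns with 50 or more reads in each library, the 3 with the largest SD between strains had means just under the limit, from 43.4% to 44.6%. Intron 1 of ubp15, which encodes a ubiquitin hydrolase, had 6.36% in prp1, 26.0% in prp22, 40.1% in cwf22, 52.7% in sap114, 59.4% in prp10 and 77.8% in ntr1, with 0.662% and 0.837% in WT. Its log2 odds in prp1 were 3.95 below those of the other 5 mutants (-3.95, SE 1.03, adjusted p = 0.0220 in edgeR), and -1.88 with an adjusted p of 0.386 after centring. Intron 2 of chc1, for the clathrin heavy chain, had 10% in prp1, 34.6% in prp22, 42.9% in prp10, 45.9% in cwf22, 53.6% in sap114 and 80.4% in ntr1, with 1.33% and 0.917% in WT. Its difference in prp1 was -3.27 (SE 1.01, adjusted p = 0.0234 in edgeR), and -1.22 with an adjusted p of 0.488 after centring. In both introns prp1 was the lowest and ntr1 the highest mutant, as at most spliced introns. Intron 5 of paa1, for the scaffold subunit of PP2A, ran from 10.1% in prp1 to 69.3% in ntr1.

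**Figure D3:**
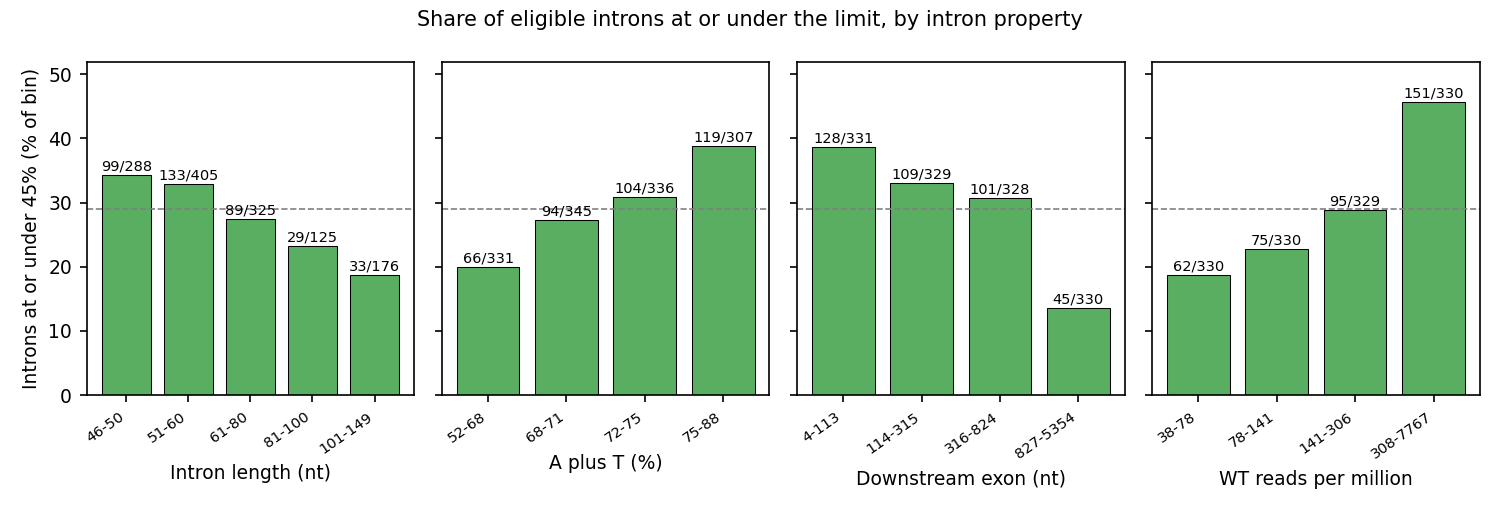
Share of the 1319 introns that lay at or under the 45% limit (%, vertical axis) in bins of intron length (nt), A plus T content (%), length of the downstream exon (nt) and WT reads per 1000000, with the counts above each bar. The dashed line is the share over all 1319 introns, 29.0%. Bars fall with length from 34.4% to 18.8% and with downstream exon length from 38.7% to 13.6%, and rise with A plus T content and with WT reads.

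The spliced introns were shorter and richer in A and T than the retained ones. Their median length was 56 nt, against 61 nt in the retained introns and 69 nt in those at 80% or more. The median A plus T content was 72.9%, against 71.0% and 70%. Among the introns of 46 to 50 nt 99 of 288 (34.4%) were spliced introns, and among those of 101 to 149 nt 33 of 176 (18.8%). In the lowest of 4 bins of A plus T content 66 of 331 (19.9%) were spliced introns, and in the highest 119 of 307 (38.8%). Combined, introns of up to 60 nt with an A plus T content above 71.4%, the median, were spliced introns in 135 of 370 cases (36.5%), and longer introns at or below that content in 63 of 353 (17.8%). These shares compare features that the choice did not use, apart from the length limits, and were not tested, since introns of 1 gene and 1 library are not independent.

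Of the features of position compared, the exon that follows the intron differed most. Its median length was 204 nt for the spliced introns, 390 nt for the retained introns and 637 nt for those at 80% or more. Where it was shorter than 114 nt, 128 of 331 introns (38.7%) were spliced introns, and where it was 827 nt or longer, 45 of 330 (13.6%). The exon before the intron differed less, with medians of 129, 148 and 158 nt. First introns made up 44.4% of the spliced introns, 46.8% of the retained introns and 54.2% of those at 80% or more. Of the 383, 380 lay between exons of the coding region.

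Over the whole sets the differences in splice site and branch sequences were small between the spliced and the retained introns. Some shares fell further in the introns at 80% or more. A log2 score of how well the 5′ splice site matches the base frequencies of annotated introns had medians of 9.63 in the spliced introns, 9.28 in the retained introns and 9.38 in those at 80% or more. In the lowest of 4 bins of this score 85 of 330 (25.8%) were spliced introns, and in the highest 113 of 330 (34.2%). The 5′ splice site was GTAAGT in 31.9% of the spliced introns, 26.6% of the retained introns and 34.7% of those at 80% or more. GTATGT stood at 24.0%, 24.1% and 20.7%. The intron ended in TAG in 76.0%, 70.6% and 67.8%. A match to the branch sequence given above was found in 81.2% of the spliced, 79.8% of the retained and 72.7% of the most retained introns. CTAAC was the match in 47.0%, 47.9% and 47.1%, and CTAAT in 25.6%, 22.8% and 18.2%. The median distance from the branch adenosine to the end of the intron was 11 nt in the spliced and 12 nt in the retained introns. A match is a description of the sequence and not a mapped branch point. With a looser search, for CTNAC or CTNAT with any base at the N and either C or T at the start, nearly every intron matched, 99.5% of the spliced and 99.4% of the retained ones.

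Genes of the spliced introns gave more reads in WT. In reads per 1000000 reads at annotated introns the median was 208, against 122 in the retained introns and 91.8 in those at 80% or more. In the highest of 4 bins by WT reads 151 of 330 introns (45.8%) were spliced introns, and in the lowest 62 of 330 (18.8%). The same total differed in direction between mutants and WT. The median log2 difference, mutants minus WT, was -0.61 in the spliced introns, -0.17 in the retained introns and +0.35 in those at 80% or more. These totals contain the unspliced reads that define the share, so the measures are not independent. Across 1318 introns Spearman's rho with the mean mutant share was -0.30 for WT reads, 0.24 for the downstream exon and 0.38 for the pooled WT share, as a description only, since all introns share the same 8 libraries.

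**Figure D4:**
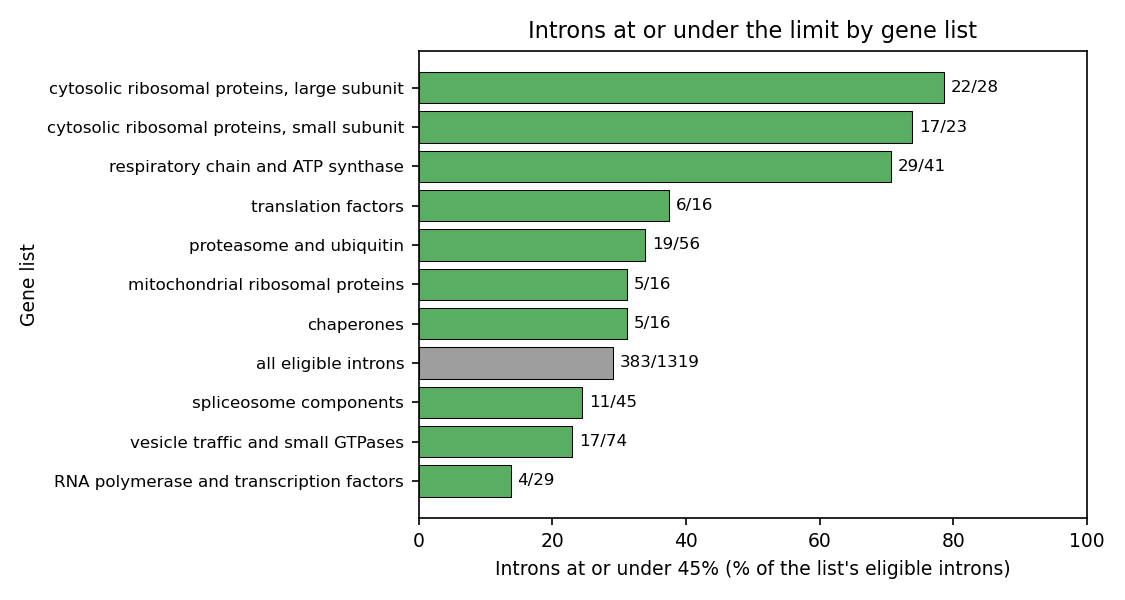
Share of the introns of each gene list that lay at or under the 45% limit (%, horizontal axis), with the counts beside each bar. The 2 lists of cytosolic ribosomal proteins and the respiratory list stand above 70%, against 29.0% of all 1319 introns (grey).

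The share of spliced introns differed between groups of genes. Of the introns in genes for the large cytosolic ribosomal subunit 22 of 28 (78.6%) were spliced introns, and of those for the small subunit 17 of 23 (73.9%). Genes for the respiratory chain or the ATP synthase followed with 29 of 41 (70.7%). The median mean mutant share was 30.9%, 28.8% and 38.1% over the introns of these lists, and 57.9% over all 1319. In each of these lists the remaining introns lay close above the limit or further up, from 45.9% to 62.0% in the large subunit, 45.7% to 54.7% in the small subunit and 47.3% to 64.6% in the respiratory list. The lists were made from gene symbols, were not tested, and cover 135 of the 383.

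Other lists stood nearer to or below the overall share. Spliced introns were 6 of 16 for translation factors, 19 of 56 for proteasome and ubiquitin genes (33.9%), 5 of 16 for mitochondrial ribosomal proteins and 5 of 16 for chaperones. They were 11 of 45 for components of the spliceosome (24.4%), 17 of 74 for vesicle traffic and small GTPases (23.0%) and 4 of 29 for RNA polymerase and transcription factors (13.8%). The ribosomal and respiratory lists also had more reads, with WT medians of 1917, 2354 and 659 reads per 1000000 against 141 over all introns. In the highest of 4 bins by WT reads, 65 of 86 introns of these 3 lists (75.6%) were spliced introns, and 86 of 244 introns outside them (35.2%). Outside the lists and in the lower 3 bins of WT reads it was 229 of 983 (23.3%). The downstream exons in these 3 lists were shorter, with medians of 252.5, 241 and 172 nt against 315 nt over all 1319 introns, and their part in the counts was not tested. The median lengths of 62 to 64.5 nt were above the 59 nt of all introns, and the median A plus T contents of 70.2% to 71.8% lay on both sides of 71.4%.

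Within both ribosomal lists the order of strains was that of the whole set, and in the respiratory list only sap114 and ntr1 changed places. The 22 large-subunit introns had median shares of 11.9% in prp1, 19.2% in prp10, 24.6% in cwf22, 26.4% in prp22, 31.1% in sap114 and 47.6% in ntr1, against 1.79% and 1.78% in WT. The 17 small-subunit introns had 8.98%, 15.3%, 24.8%, 25.8%, 34.4% and 44.8% in the same order of strains, against 1.16% and 1.58% in WT. The 29 respiratory introns had 13.04% in prp1, 27.1% in prp10, 30.5% in cwf22, 31.8% in prp22 and 46.1% in sap114. In these ntr1, with 43.9%, came below sap114, while in both ribosomal lists it was the highest. WT was at 1.502% and 2.56% for the respiratory introns. Members with the lowest means after those already named were intron 1 of rpl3802 (eL38, 16.1% ± 7.98), intron 3 of rps13 (uS15, 16.7% ± 9.57), intron 3 of cox12 (17.1% ± 8.15) and intron 1 of cox13 (18.6% ± 12.3; SD, n = 6 in each).

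**Figure D5:**
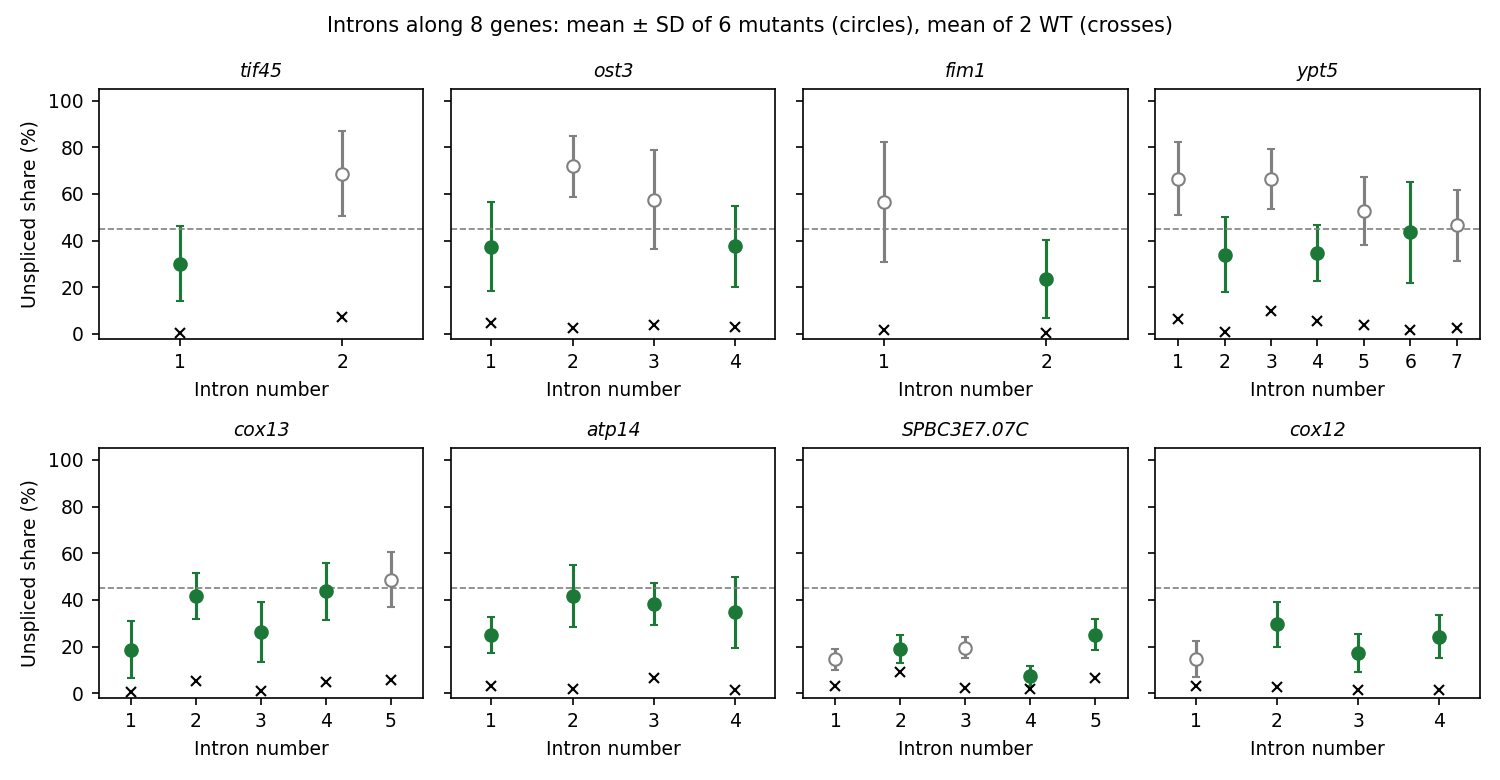
Mean unspliced share of the 6 mutants with SD (%, circles) and the mean of the 2 WT libraries (crosses) for each annotated intron of 8 genes, by intron number. Filled circles are spliced introns, open circles other introns, and the dashed line is the 45% limit. In tif45, ost3, fim1 and ypt5 neighbouring introns of 1 gene lie far apart, and in cox13, atp14, SPBC3E7.07C and cox12 most lie under the limit.

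Some genes held several spliced introns. Of the 282 genes 210 had 1 spliced intron, 50 had 2, 15 had 3 and 7 had 4. Among 306 genes with 2 or more of the 1319 introns, all were spliced introns in 59, some in 66 and none in 181. The cytochrome c oxidase gene cox13 had 4, with mean mutant shares of 18.6%, 41.7%, 26.2% and 43.6% from intron 1 to intron 4, and its intron 5, at 48.7%, lay just above the limit. All 4 introns of atp14, for a subunit of ATP synthase, were spliced introns, at 25.1%, 41.6%, 38.1% and 34.6%. In cox12, another oxidase gene, introns 2 to 4 were at 29.5%, 17.1% and 24.2%, and intron 1, 45 nt long and so too short for the choice, was at 14.8%. In the uncharacterized gene SPBC3E7.07C all 5 introns were at 25.1% or less, although introns 1 and 3 are too short to be counted.

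In other genes a spliced intron stood beside a retained one. Pairs whose introns both belong to the 1319 were sought after the values were seen, and the 4 with the largest difference and 50 or more reads throughout are shown because the introns of a pair lie on 1 transcript.
tif45 intron 1 (chrI:3528386-3528453, plus strand, spliced): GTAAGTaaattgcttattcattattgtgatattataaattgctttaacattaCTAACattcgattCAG
tif45 intron 2 (chrI:3528629-3528762, plus strand, retained): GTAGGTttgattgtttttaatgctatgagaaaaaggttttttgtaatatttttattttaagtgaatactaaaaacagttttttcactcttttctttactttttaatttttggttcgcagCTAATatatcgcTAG
ost3 intron 1 (chrI:1283336-1283386, plus strand, spliced): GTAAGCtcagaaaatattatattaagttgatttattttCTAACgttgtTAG
ost3 intron 2 (chrI:1283505-1283562, plus strand, retained): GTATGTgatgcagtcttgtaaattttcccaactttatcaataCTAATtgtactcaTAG
fim1 intron 2 (chrII:3106889-3106942, minus strand, spliced): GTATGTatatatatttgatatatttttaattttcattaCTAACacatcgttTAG
fim1 intron 1 (chrII:3108432-3108507, minus strand, retained): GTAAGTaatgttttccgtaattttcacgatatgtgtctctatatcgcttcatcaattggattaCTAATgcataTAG
ypt5 intron 2 (chrI:2762494-2762561, plus strand, spliced): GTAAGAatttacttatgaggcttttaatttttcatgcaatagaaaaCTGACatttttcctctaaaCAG
ypt5 intron 1 (chrI:2762383-2762453, plus strand, retained): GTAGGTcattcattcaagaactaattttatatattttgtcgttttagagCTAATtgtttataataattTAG

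In tif45, which encodes the cap-binding initiation factor eIF4E, intron 1 had 10.5% in prp1, 21.2% in sap114, 29.9% in prp22, 30.2% in prp10, 30.4% in cwf22 and 58.7% in ntr1. Intron 2 had 32.5% in prp1, 71.9% in prp22, 72.1% in prp10, 72.4% in cwf22, 79.7% in ntr1 and 83.4% in sap114. In every mutant intron 2 was the higher of the pair, which was chosen for its gap in mean mutant share. In WT too intron 2 was the higher, with 5.82% and 8.85% against 0.426% and 0.220%. The means were 30.1% ± 16.02 and 68.7% ± 18.3 (SD, n = 6). Intron 2 is 134 nt long and begins with GTAGGT, while intron 1 is 68 nt long and begins with GTAAGT.

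In ost3, for a subunit of the oligosaccharyltransferase of N-glycosylation, the pair has nearly the same length, 51 and 58 nt. Intron 1 ran from 11.4% in prp1 to 66.0% in ntr1 and intron 2 from 47.4% in prp1 to 83.1% in ntr1, with means of 37.5% ± 19.1 and 71.8% ± 13.04 (SD, n = 6). In WT the order was the other way, with 5.15% and 4.43% for intron 1 and 3.75% and 1.29% for intron 2. Here the retained intron begins with GTATGT and the spliced one GTAAGC.

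In fim1, which encodes the actin-bundling protein fimbrin, the spliced intron 2 ran from 7.74% in prp1 to 54.1% in ntr1 and the retained intron 1 from 17.7% in prp1 to 83.9% in ntr1. In ypt5, for the endosomal Rab GTPase, the spliced intron 2 ran from 10.4% in prp1 to 54.8% in ntr1 and the retained intron 1 from 39.4% in prp1 to 81.6% in sap114. The branch sequence of intron 2 of ypt5 is CTGAC and lies 18 nt before the end of the intron, as does the CTAAT of intron 1. In both genes the retained intron was the higher one in all 6 mutants, but these pairs were chosen for their gap in mean mutant share. With the lowest spliced and the highest retained intron taken from each gene, this held in 52 of 66 genes. Of the 7 introns of ypt5, 3 were spliced introns, at 34.0%, 34.8% and 43.5%, and each lay between introns above the limit, as the plot of introns along genes shows.

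Over the 66 genes with both kinds, the spliced introns were the shorter in 47 and the longer in 17, with equal lengths in 2. They were richer in A and T in 46 of the 66, and had the higher 5′ splice site score in 45 (a log2 score of the match of 3 exon and 8 intron bases to the base frequencies of the annotated introns). The downstream exon, whose median differed between the whole sets, was shorter for the spliced introns in 35 and longer in 31. Their number in the gene was lower in 29 and higher in 32. Their WT share was lower in 54 of the 66. That the spliced intron was lower on average follows from the choice.

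Wider gaps were found beside introns that fail the WT condition, where the gap also exists without a mutation. In rps13, for uS15 of the small subunit, intron 3 had 16.7% ± 9.57 in the mutants and 0.974% ± 0.193 in WT, while intron 2 had 74.1% ± 6.71 and 61.3% ± 1.66 (SD, n = 6 and 2). In fkh1, for an FKBP-type prolyl isomerase, intron 2 had 25.3% ± 15.3 and 1.10% ± 0.0940, and intron 1 84.2% ± 3.21 and 60.9% ± 2.04. Retention in WT was thus high at the neighbouring intron in both genes. In rps2502 the neighbouring intron 1 had 74.4% ± 11.1 and 13.9% ± 3.78, against the 9.68% ± 5.45 and 0.474% ± 0.0247 of intron 2, but it was covered by 8661 reads over all libraries and intron 2 by 39649.

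Other splice sites were used at some of the spliced introns. A junction in the table that shares 1 end with the intron was found at 188 of the 383 (49.1%) and at 365 of the 936 retained introns (39.0%). More reads make such a find more likely, and the spliced introns had more. Their median was 88 reads in WT replicate 1 and 181 in WT replicate 2, against 51 and 102 in the retained introns. The part of read depth in these counts was not tested. Pooled over the set, such junctions took 0.345% ± 0.0528 (SD, n = 6) of the spliced reads in the mutants and 0.297% ± 0.0252 (SD, n = 2) in WT. In the retained introns they took 0.455% ± 0.0697 and 0.271% ± 0.00746. The mutant values of the spliced introns ran from 0.274% in prp1 to 0.426% in ntr1 and overlapped with the WT values of 0.314% and 0.279%.

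Among introns with 50 or more reads in each library and 50 or more reads at other sites, acb1 intron 1, tim11 intron 2 and spi1 intron 2 had the highest shares at other sites. In acb1, which encodes the acyl-CoA binding protein, a 3′ splice site 18 nt away from the annotated one took 9.46% ± 1.35 (SD, n = 6) in the mutants and 7.32% ± 1.42 (SD, n = 2) in WT, and the mutant range of 7.31% to 11.4% overlapped with the WT values of 8.32% and 6.31%. In intron 2 of tim11, for a subunit of ATP synthase, a 3′ splice site 3 nt away took 8.02% ± 1.39 and 6.74% ± 0.283. Intron 2 of spi1, for the Ran GTPase, had a 5′ splice site 5 nt away, and its other junctions together took 6.79% ± 3.03 and 4.18% ± 0.215, with 12.6% in ntr1 as the highest value. At these introns the other site was thus in use in WT as well.

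Intron 1 of ubc4, for a ubiquitin-conjugating enzyme, and intron 5 of nda3, for beta-tubulin, were spliced introns as well. The first had 55.6% in sap114, 54.0% in ntr1, 38.1% in cwf22, 31.8% in prp22, 19.0% in prp10 and 9.85% in prp1, against 0.712% and 1.07% in WT. In ubc4 the junction that runs from the start of intron 1 over the next exon took 0.715% ± 0.397 (SD, n = 6) of the spliced reads together with rarer junctions in the mutants, and 0.115% ± 0.00198 (SD, n = 2) in WT. Every mutant value, from 0.297% in prp1 to 1.21% in ntr1, was above both WT values. Together these junctions of ubc4 had 143 reads over all 8 libraries, so the WT shares rest on few reads. Their SD does not cover counting error. Intron 5 of nda3 had a mean share of 39.9% ± 19.2 (SD, n = 6), from 11.8% in prp1 to 60.8% in sap114. None of the 6 mutated splicing genes had an intron among the 383.

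An annotated gene on the opposite strand overlapped 233 of the spliced introns (60.8%) and 56.3% of the retained introns. Whether the authors' counting used strand is not stated, and reads of the pair then could not be told apart. The part of this overlap in the unspliced shares was not tested.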

How the data were processed

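Poly(A) RNA of 8 libraries was analysed from 1 table of the whole series. Its values are read counts for each splice junction and library, spliced and unspliced, as the authors deposited them and per the file headers. STAR 2.5, bedtools 2.26 and build ASM294v2 are named in the submitters' processing notes. The rule for counting a read as unspliced, the read length and the use of strand were not found in the labels or headers. Groups come from the genotype labels. Chromosome lengths of the NCBI reference fit the table, 5134 of 5143 introns on the chromosomes begin with GT and end in AG there, and 5077 of 5144 match a reference intron, from which gene names, products and intron numbers were taken.

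Shares, medians and features were computed in Python 3.11.15 with pandas 2.3.3, and reads per 1000000 over all annotated introns, with a pseudocount of 1 for log2 differences. Each strain was fitted against the other 5 mutants with edgeR 4.0.16 in R 4.3.3 on the counts of 2514 introns, with a term for every library and 4 residual degrees of freedom, at an adjusted p of 0.05. DESeq2 1.42.0 and limma 3.58.1 (log2 odds, pseudocount 0.5) served as other settings. The fit was tested on simulated data. Single-library intervals are Wilson 95% intervals, and a count of 0 is taken to allow 3 counts.

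The introns named, with at least 50 reads in each library and 1 per gene in each class, are the 12 lowest, the 3 on each side of the limit, the largest differences of each strain, the largest SDs, the lowest of the gene lists, the widest gaps within genes, the genes with most spliced introns, those with most use of other sites, and a few fixed genes. The set of introns, the gene lists and the features were chosen with earlier results of these data known. The downstream exon and the pairs of introns within genes were added after the values were seen. Sequences are those of the RefSeq reference, assembly ASM294v3, at the coordinates of the table.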

Additional observations from a re-analysis of the deposited data

Results flagged for a closer look

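Among the 78 named introns examined, 1 mutant library stood apart from the other 5 in 5 cases, and chance flags about 1 in 20 such groups. The 5 cases are near that rate. Some of the 78 were named for large differences between strains, and all share the same libraries, so the rate is only a rough guide. The ntr1 library was far above the others in intron 4 of SPBC3E7.07C (15.3%), intron 1 of rpl3602 (26.2%), intron 1 of rps3001 (44.8%) and intron 1 of cox13 (42.2%). The prp1 library was far below the others in intron 2 of tif45 (32.5%), which is a retained intron. In edgeR, prp1 differed from the other 5 mutants in intron 1 of ubp15 (log2 odds -3.95, lower than each of the other 5). It also differed in intron 2 of chc1 (log2 odds -3.27, lower than each of the other 5). These 2 were named for the largest falls in prp1 among the spliced introns called lower. The other named introns were not examined for such a call.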

How the results depend on the processing

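The number of spliced introns was 456 with a minimum of 10 reads, 271 with 50, 349 with summed mutant reads, 288 with a limit of 40% and 482 with 50%, and ran from 300 to 456 without 1 library. Of 413 values recomputed for the set and the tests under other settings, 402 stayed within a set bound. The bound was 1.5 times for counts of introns and of calls, and the SD over strains or WT libraries for unspliced shares. For features of sequence and position it was a 95% interval over introns. Introns and strains are not replicates, so these bounds are mostly not a replicate spread. Many of the values are counts of 0 called introns that stayed at 0, so their agreement says little. With the looser branch sequence CTAAC stood in 33.2%, a match in 99.5%, and the median distance was 10 nt. Of the spliced introns, 29.2% were called lower in prp1, 18.8% in limma and 0% after centring, and 13.8% to 39.7% without 1 other mutant. All tested introns called lower in prp1 numbered 765 with a minimum of 50 reads, 0 after centring, and 748 to 1362 without 1 other mutant, and limma called 2 higher in ntr1. The cause was not tested, apart from the 1400 introns that a minimum of 50 reads leaves. The named introns of ubp15 and chc1 lost their call in prp1 only after centring. No paired analysis was possible because each mutant has 1 library and replicate numbers stand on WT alone. In WT replicate 1 the median spliced intron had 88 reads, so that low WT shares rest on few reads.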
